A study of Sus scrofa with 10 samples.

Results

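Membrane traffic genes were compared between porcine fetal fibroblasts sorted as positive and as negative for SSEA-1. The set held 114 genes, drawn from 6765 genes with a single symbol on the array: RAB, VPS, SEC and ARF genes with a number in their symbol, sorting nexins, COPI coat subunits, TMED cargo receptors, ARF regulators named ARFG, and the beta, delta, epsilon, gamma, mu and sigma subunits of the clathrin adaptors. Each gene was read from its brightest probe set, judged by the mean of the 10 arrays, and the 114 genes had 186 probe sets in all. The rule that picked the genes used their symbols alone, but it was set with earlier results of these data known.

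The cells were fibroblasts grown from day 24 pig fetuses, head removed, of a Danish Landrace/Yorkshire x Duroc cross, in serum-containing medium on gelatin, and the series title calls them a cell line. They were divided by magnetic activated sorting for SSEA-1, a cell surface carbohydrate also called Lewis X, into an SSEA1+ and an SSEA1- fraction. Each fraction had 5 arrays, numbered replicate 1 to 5, described by the submitters as biological replicates, and the labels give no genetic change and no drug for either fraction. The sources used here give neither the purity of the fractions nor the number of fetuses behind the cultures.

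Cargo moves between membrane compartments in vesicles and tubules. COPII coats bud them from the endoplasmic reticulum, COPI coats return them from the Golgi, and clathrin adaptors select cargo at the trans-Golgi network, endosomes and plasma membrane. ARF GTPases recruit coats, RAB GTPases give each membrane its identity, and VPS complexes and sorting nexins sort cargo at endosomes toward the lysosome, the Golgi or the cell surface.

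Values are log2 signals normalized by the authors, and every difference below is the SSEA1+ mean minus the SSEA1- mean on that scale. A gene is said to have risen or fallen where limma's Benjamini-Hochberg adjusted p over all 24123 probe sets was under 0.05. The background level, set by control probe sets for absent sequences, was 0.352. Of the 114 genes, 107 read above it on all 10 arrays, 6 on some arrays and RAB19 on none; the 6 were COPB2, VPS53, RAB26, RAB15, RAB27B and SNX11. Signals of different probe sets are not compared as amounts of RNA. In a sorted population, fewer cells of a type and less RNA per cell cannot be told apart.

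Fibroblast markers were present: 9 of 11 listed were measured, all above background on every array, and their mean ran from 6.77 to 7.08 in SSEA1+ and from 6.74 to 7.04 in SSEA1-. Of the 9, 1 was called, COL1A2, which rose by 1.19, and the lowest difference in the list was -0.50. An unadjusted p under 0.05 in limma was found for 3 of the 9, where 23.8% of all genes had one. With the replicate block 2 rose and 1 fell, where 5.65% of all genes rose and 8.62% fell. No marker of another cell type was called in limma in either direction, although 4 of the 6 epithelial markers measured had an unadjusted p under 0.05, with a median difference of 0.21 over the list, and 1 passed with the replicate block. PTPRC, CD163, AIF1 and LCP1 of the 5 leukocyte markers measured, CDH5, KDR, TEK and TIE1 of the 6 endothelial markers, and EPCAM had means at or below background. Epithelial markers averaged 1.47 to 1.97 in SSEA1+ and 1.29 to 1.99 in SSEA1-, and muscle markers 3.82 to 4.18 and 3.41 to 4.13; their part in the results was not tested. The poly-A spike-in controls, RNAs added to each sample before labelling, moved with the sort. Their level relative to the hybridisation controls was -3.20 ± 0.32 in SSEA1+ and -4.02 ± 0.25 in SSEA1- (SD, n = 5 each), 0.82 apart (two-sided exact permutation p = 0.00794, the minimum for this design). The 3' minus 5' signal of actin was 1.17 against 1.24 (exact permutation p = 0.302), and that of GAPDH 0.88 against 0.95 (exact permutation p = 0.151).

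Of the 114 genes, 8 changed between the fractions. COPG2, RAB9A and AP1M1 rose in SSEA1+, and SNX1, SNX6, SNX24, RAB24 and VPS41 fell. That is 7.02% of the set, next to 7.39% of all genes called in the same fit. The 3 rises were 2.63% of the set against 3.21% of all genes, and the 5 falls 4.39% against 4.18%. At an unadjusted p under 0.05 there were 31, 27.2% against 23.8%. The share of traffic genes called was therefore near that of the array as a whole. With the replicate number as a block, 12 passed, 10.5% of the set against 14.3% of all genes. Of these, 5 rose, against 5.65% of all genes, and 7 fell, against 8.62%. VPS4A, RAB11B, RAB23 and SEC62 were the additional 4. With the spike-in level as a covariate none of the 114 passed in limma (lowest adjusted p = 0.0570), and 6 of the 6765 genes did. In that fit 15 of the 114 had an unadjusted p under 0.05, as did 987 of the 6765.

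The differences were small. Over the 114 genes the median difference was 0.02, with 52 reading lower and 62 higher, and over all genes it was -0.01. The median size was 0.10 for the set and 0.11 for all genes, and 100 of the 114 differed by less than 0.25. For 102 of the 106 genes not called, the 95% interval of the difference lay wholly between -0.5 and 0.5, within 1.41-fold either way. The exceptions were SEC24D, VPS4A, SEC22C and RAB23, whose intervals reached 0.53, 0.51, 0.52 and -0.58. Values of the 5 arrays of each fraction did not overlap for 16 genes, 14.0% of the set against 8.51% of all genes, with 8 higher and 8 lower in SSEA1+, where the whole array had 3.96% and 4.55%. They were the called genes other than SNX24, together with VPS37B, RAB35, RAB3D, TMED5 and AP1S1 on the higher side and COPB1, SEC13, SEC62 and SNX14 on the lower.

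**Figure D1:**
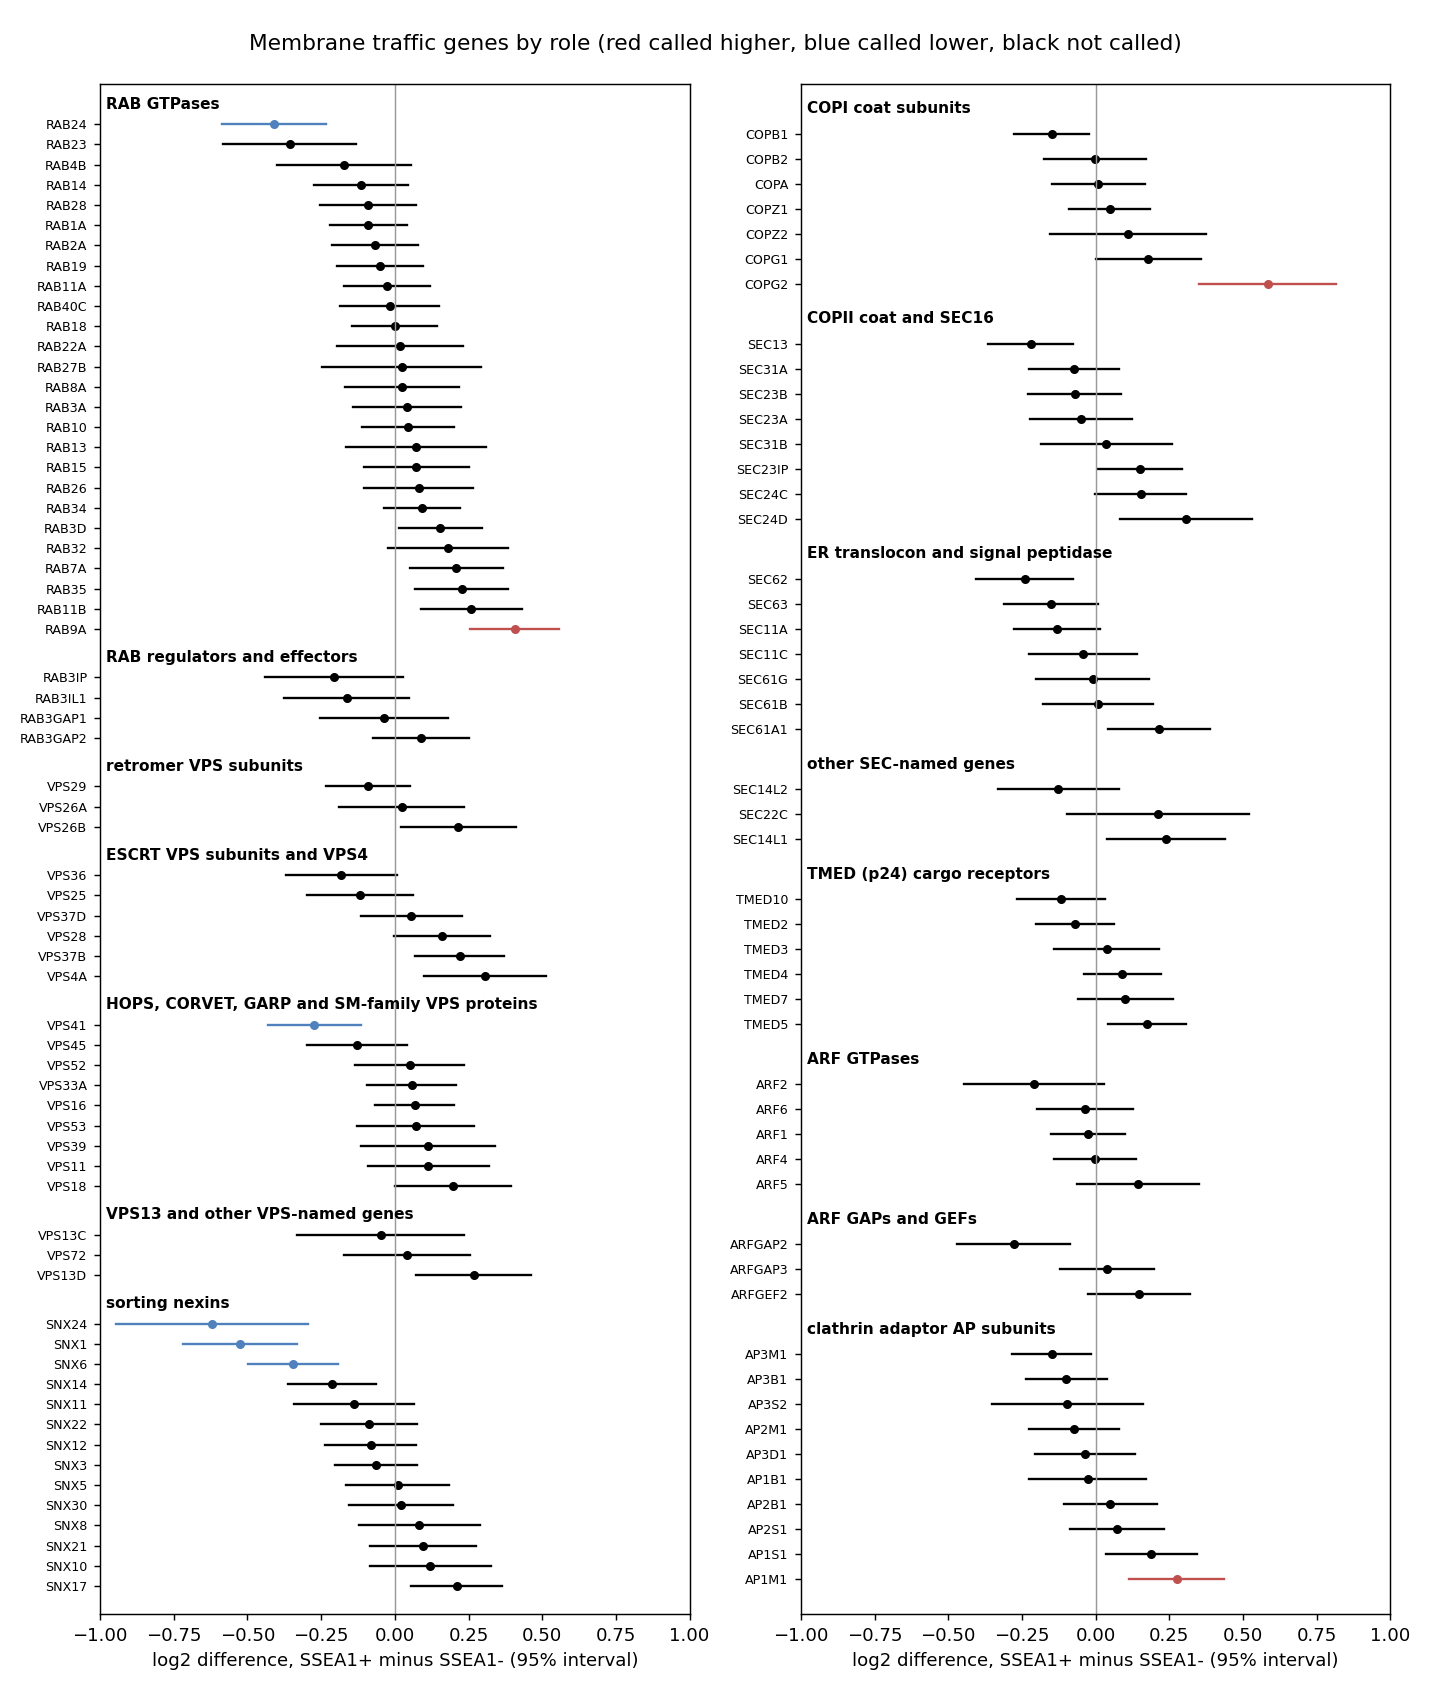
Difference in log2 signal, SSEA1+ minus SSEA1-, for each of the 114 genes by role, with points at limma's estimate and lines for its 95% interval. Most genes lie within 0.25 of 0, and 3 genes called higher and 5 called lower are in colour.

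Sorting nexins bind endosomal phosphoinositides through a PX domain, and some bend membrane with a BAR domain. Of 14 measured, 3 fell and none rose, where 4.18% of all genes fell and 3.21% rose, and the median difference was -0.07. At an unadjusted p under 0.05 in limma there were 5, where 23.8% of all genes had one. SNX1, a BAR-domain nexin of the retromer-associated tubules that carry receptors from endosomes to the Golgi, read 5.06, 5.07, 4.86, 5.13 and 5.22 in SSEA1+ replicates 1 to 5 and 5.66, 5.44, 5.61, 5.79 and 5.45 in SSEA1-. Every SSEA1+ value lay below every SSEA1- value. SNX1 fell by 0.52 ± 0.09 (SE, limma adjusted p = 0.00525), 1.44-fold lower, and was lower in 5 of 5 pairs by replicate number.

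SNX6, which pairs with SNX1 or SNX2 in those tubules, read 5.84, 5.81, 6.04, 5.97 and 5.96 in SSEA1+ and 6.23, 6.21, 6.19, 6.39 and 6.32 in SSEA1-, again without overlap. It fell by 0.35 ± 0.07 (SE, limma adjusted p = 0.0133), and this call ended when the replicate 1 pair or the replicate 5 pair was left out. SNX6 had 4 probe sets, all reading lower: the others gave -0.26, without overlap but with a limma adjusted p = 0.0506 (0.0292 with the block), and -0.10 and -0.08. The mean over the 4 fell by 0.20 (limma adjusted p = 0.0491). SNX5, the close relative of SNX6 that fills the same place, differed by 0.01 with a 95% interval of -0.17 to 0.18. A second SNX5 probe set, above background on all 10 arrays, read -0.14 (limma adjusted p = 0.260), lower in 4 of 5 pairs.

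SNX24, a small nexin with little beyond its PX domain, read 1.51, 1.84, 1.41, 1.96 and 1.71 in SSEA1+ and 2.47, 2.49, 2.17, 1.79 and 2.61 in SSEA1-. The fractions overlapped, because replicate 4 ran the other way, higher in SSEA1+. SNX24 fell by 0.62 ± 0.15 (SE, limma adjusted p = 0.0291), yet its call ended in 6 of 10 single-array leave-outs, those of replicates 1, 3 and 5 of either fraction, where the adjusted p reached 0.0776, and without 4 of 5 pairs, and it was -0.03 ± 0.22 (SE) with the spike-in level as a covariate. Among the other 11 nexins, SNX14 at -0.21 and SNX17, which returns cargo from endosomes to the cell surface, at 0.21 did not pass, and a second SNX17 probe set read -0.10. SNX22 differed by -0.09 and SNX3, which acts with retromer, by -0.06.

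RAB GTPases cycle between a GTP-bound, membrane-attached state and a GDP-bound, soluble one. Of 26 measured, 1 rose and 1 fell, where 3.21% of all genes rose and 4.18% fell, and their median difference was 0.02. An unadjusted p under 0.05 in limma was found for 7, where 23.8% of all genes had one. RAB9A, which acts in transport from late endosomes to the trans-Golgi network, read 4.68, 4.68, 4.54, 4.61 and 4.68 in SSEA1+ and 4.25, 4.32, 4.20, 4.06 and 4.32 in SSEA1-. No values overlapped, and the 5 pair differences ran from 0.344 to 0.544. RAB9A rose by 0.41 ± 0.07 (SE, limma adjusted p = 0.00547), 1.33-fold, while its second probe set, near background, read -0.09. The mean over both probe sets was 0.16 (limma adjusted p = 0.164), so that the call rests on the brighter one.

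RAB24, an atypical RAB linked to autophagy, moved the other way. It read 3.68, 3.60, 3.57, 3.92 and 3.78 in SSEA1+ and 4.20, 3.99, 4.08, 4.11 and 4.24 in SSEA1-, without overlap. RAB24 fell by 0.41 ± 0.08 (SE, limma adjusted p = 0.0117), 1.33-fold lower. Its dim second probe set gave -0.03, the call ended when the pair of replicate 1, 3 or 5 was left out, and the spike-in covariate brought the difference to -0.27 ± 0.15 (SE). The mean over both RAB24 probe sets did not pass either, at -0.22 (limma adjusted p = 0.203).

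Other RABs did not pass without the block. RAB23, a regulator of hedgehog signalling, differed by -0.36 (limma adjusted p = 0.0623, or 0.0310 with the block), but its other probe sets read 0.08 and -0.08. RAB11B, of the recycling endosome, differed by 0.26 (limma adjusted p = 0.0739, or 0.0374 with the block), whereas its relative RAB11A differed by -0.03. RAB7A of late endosomes and RAB35 of endocytic recycling differed by 0.21 and 0.23 without passing. RAB1A, RAB2A and RAB18, which act around the endoplasmic reticulum and Golgi, differed by -0.09, -0.07 and 0.00. None of the 4 RAB regulators changed or had an unadjusted p under 0.05 in limma: RAB3IP and RAB3IL1, exchange factors, differed by -0.21 and -0.16, and RAB3GAP1 and RAB3GAP2, the subunits of a GTPase-activating complex, by -0.04 and 0.09. The other RAB3GAP2 probe sets read -0.17 (limma adjusted p = 0.308) and, near background, 0.12.

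**Figure D2:**
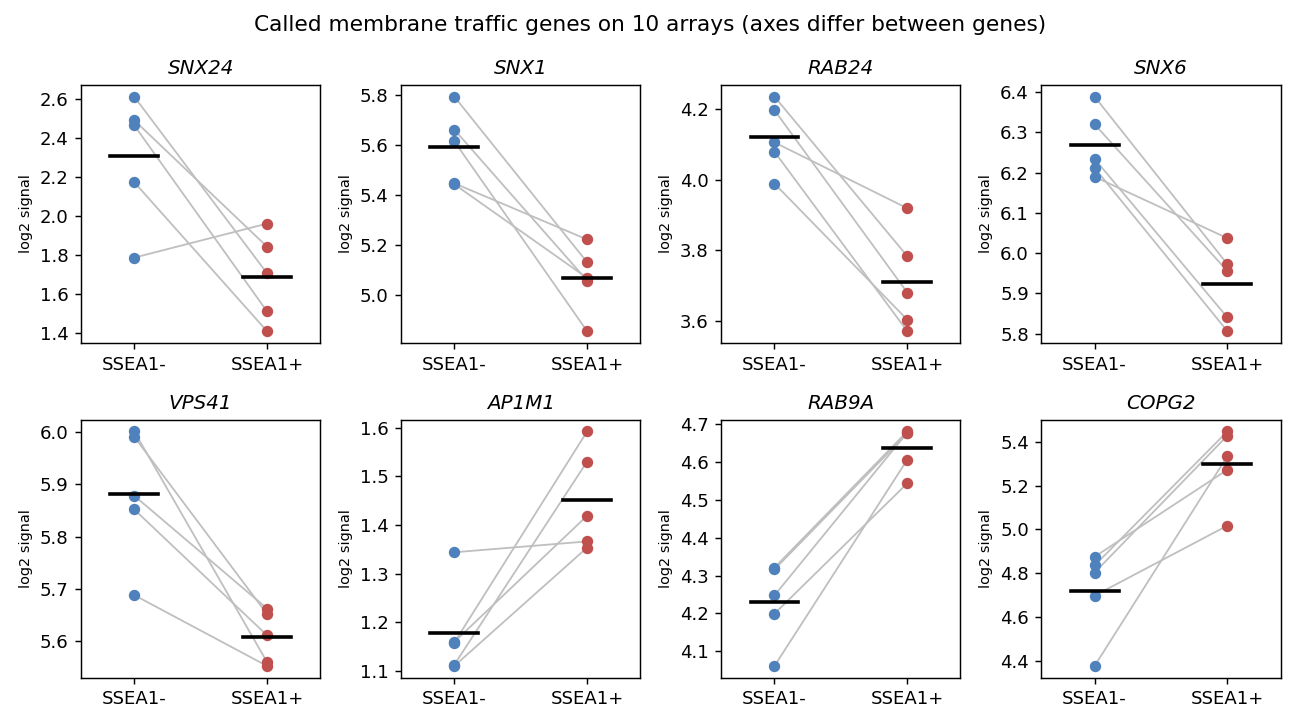
Log2 signal on each array for the 8 called genes, SSEA1- in blue and SSEA1+ in red, with grey lines joining arrays of the same replicate number and black bars at the means. The fractions separate fully for 7 genes and overlap for SNX24, and each gene has its own vertical axis.

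Coats of the early secretory pathway gave 1 call. COPG2, a gamma subunit of COPI that can take the place of COPG1 in the coat, read 5.27, 5.43, 5.02, 5.33 and 5.45 in SSEA1+ and 4.87, 4.80, 4.70, 4.38 and 4.84 in SSEA1-. The lowest SSEA1+ value exceeded the highest SSEA1- value. COPG2 rose by 0.58 ± 0.11 (SE, limma adjusted p = 0.00801), and read 0.98 ± 0.16 (SE) with the spike-in covariate.

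Of the 7 COPI genes measured, 6 did not pass. In limma 3 of the 7 had an unadjusted p under 0.05, where 23.8% of all genes did. COPG1 differed by 0.18, COPZ2 by 0.11, COPZ1 by 0.05 and COPA by 0.01. COPB1 lay between 7.53 and 7.68 on the SSEA1+ arrays and between 7.75 and 7.79 on the SSEA1- arrays, a separation without overlap of only -0.15 (limma adjusted p = 0.174), and its second probe set read -0.25 (limma adjusted p = 0.0623, or 0.0313 with the block). COPB2 was near background.

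In limma none of the 8 COPII genes changed. An unadjusted p under 0.05 was found for 3 of the 8, SEC13, SEC24D and SEC23IP, where 23.8% of all genes had one. SEC13, a coat subunit that also serves in nuclear pores, read 6.20, 6.09, 6.19, 6.24 and 6.24 in SSEA1+ and 6.37, 6.40, 6.29, 6.51 and 6.48 in SSEA1-, a difference of -0.22 ± 0.07 (SE, limma adjusted p = 0.0720). SEC24D, a cargo-binding subunit, differed by 0.31 and its relative SEC24C by 0.15. SEC23A, an inner coat subunit, differed by -0.05, and SEC31A, of the outer coat, by -0.07.

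The p24 family of cargo receptors, which cycle between endoplasmic reticulum and Golgi, gave no call in 6 genes. Of these 1, TMED5, had an unadjusted p under 0.05 in limma, where 23.8% of all genes did. TMED5 was also the only one of the 6 without overlap, at 6.84 to 6.91 in SSEA1+ and 6.60 to 6.79 in SSEA1-, a difference of 0.17 (limma adjusted p = 0.123). Its other probe sets read -0.10, -0.06 and -0.03, the last above background on no array. TMED2 and TMED10, which assemble with each other, differed by -0.07 and -0.12. A second TMED10 probe set fell by 0.29 (limma adjusted p = 0.0207), with 4.95 to 5.19 in SSEA1+ below 5.34 to 5.42 in SSEA1-.

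The SEC61 translocon moves nascent proteins into the endoplasmic reticulum, with SEC62 and SEC63 as partners and SEC11 proteins as the catalytic subunits of signal peptidase. None of these 7 genes passed in limma by its brightest probe set. SEC61A1 and SEC62, or 2 of them, had an unadjusted p under 0.05, where 23.8% of all genes had one. SEC61A1, the channel itself, read 6.58, 6.55, 6.68, 6.55 and 6.43 in SSEA1+ and 6.15, 6.47, 6.47, 6.37 and 6.24 in SSEA1-, a difference of 0.22 ± 0.08 (SE, limma adjusted p = 0.143). Both of its other probe sets rose. One read 1.39, 1.73, 1.65, 1.73 and 1.51 in SSEA1+ and 0.63, 0.82, 0.91, 0.69 and 0.87 in SSEA1-, a rise of 0.82 ± 0.09 (SE, limma adjusted p = 0.000347). The remaining one read 2.15, 1.77, 1.89, 1.73 and 1.98 in SSEA1+ and 1.42, 1.46, 1.57, 1.53 and 1.35 in SSEA1-, without overlap. It rose by 0.44 ± 0.09 (SE, limma adjusted p = 0.0115).

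All 3 SEC61A1 probe sets thus read higher in 5 of 5 pairs, with sizes that differed between them. The mean over its probe sets rose by 0.49. The small channel subunits SEC61B and SEC61G differed by 0.01 and -0.01, and SEC62 by -0.24, without overlap (limma adjusted p = 0.0848, or 0.0411 with the block).

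Endosomal VPS complexes gave 1 call, VPS41. This subunit of HOPS, the tether that fuses late endosomes with lysosomes, read 5.66, 5.65, 5.61, 5.56 and 5.55 in SSEA1+ and 5.88, 5.99, 5.85, 6.00 and 5.69 in SSEA1-. VPS41 fell by 0.27 ± 0.07 (SE, limma adjusted p = 0.0437) with no overlap, but the call ended without each single array other than SSEA1- replicate 5 and without each pair, at adjusted p-values up to 0.138, and with cyclic loess (limma adjusted p = 0.0583). The HOPS or CORVET genes VPS39, VPS11, VPS16, VPS18 and VPS33A differed by 0.11, 0.11, 0.07, 0.20 and 0.06 and did not pass. VPS45, a partner of SNAREs, differed by -0.13.

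ESCRT complexes form vesicles inside endosomes, and VPS4 ATPases take them apart. None of 6 measured genes passed in limma without the block. Of the 6, VPS4A and VPS37B, or 2, had an unadjusted p under 0.05, where 23.8% of all genes had one. VPS4A read 4.90, 4.67, 5.08, 5.06 and 4.98 in SSEA1+ and 4.68, 4.39, 4.75, 4.75 and 4.60 in SSEA1-. Its fractions overlapped, while each pair differed by 0.22 to 0.384, and its difference of 0.31 ± 0.10 (SE, limma adjusted p = 0.0798) passed with the block (limma adjusted p = 0.0128). The ESCRT-I subunits VPS37B and VPS28 differed by 0.22 and 0.16, and the ESCRT-II subunits VPS36 and VPS25 by -0.18 and -0.12.

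Retromer, the VPS26, VPS29 and VPS35 complex that recovers receptors from endosomes, was represented by 3 genes, none of which passed in limma. VPS26B differed by 0.21, VPS26A by 0.02 and VPS29 by -0.09. Only VPS26B, 1 of the 3, had an unadjusted p under 0.05 by its brightest probe set, where 23.8% of all genes had one. A second VPS26A probe set, above background on all 10 arrays, read -0.19 (limma adjusted p = 0.148), lower in 5 of 5 pairs. Among VPS13 lipid transfer proteins, VPS13D differed by 0.27 (limma adjusted p = 0.104) and VPS13C by -0.05. VPS72, which shares the symbol stem but belongs to chromatin remodelling complexes, differed by 0.04. SEC14L1, SEC14L2 and SEC22C, of the remaining SEC-named genes, differed by 0.24, -0.13 and 0.21 and did not pass.

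Clathrin adaptors are complexes of 4 subunits, AP-1 at the trans-Golgi network and endosomes, AP-2 at the plasma membrane and AP-3 on endosomes. Of 10 subunits measured, 1 rose and none fell, where 3.21% of all genes rose and 4.18% fell. In limma 3 had an unadjusted p under 0.05, where 23.8% of all genes did. AP1M1, the AP-1 subunit that reads tyrosine-based sorting signals, read 1.37, 1.35, 1.59, 1.53 and 1.42 in SSEA1+ and 1.34, 1.11, 1.16, 1.11 and 1.16 in SSEA1-. The ranges met almost at the highest SSEA1- array, replicate 1. AP1M1 rose by 0.28 ± 0.07 (SE, limma adjusted p = 0.0459), and its call ended without each single array other than SSEA1- replicate 1, without each pair, with trended and robust variances, and with repeated quantile normalization or cyclic loess (limma adjusted p = 0.0577 and 0.0502). Its second probe set read 0.12 (limma adjusted p = 0.520), and the mean over both was 0.20 (limma adjusted p = 0.0721). With the spike-in covariate AP1M1 read 0.13 ± 0.14 (SE).

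AP1S1, also of AP-1, differed by 0.19 without overlap and AP1B1 by -0.03. The AP-2 subunits AP2M1, AP2S1 and AP2B1 differed by -0.07, 0.07 and 0.05, although a second AP2B1 probe set rose by 0.47 (limma adjusted p = 0.0255). The AP-3 subunits AP3M1, AP3B1, AP3D1 and AP3S2 differed by -0.15, -0.10, -0.04 and -0.10.

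None of the 5 ARF GTPases passed in limma by its brightest probe set, nor had any an unadjusted p under 0.05. ARF1 and ARF4, which act at the Golgi, differed by -0.03 and -0.00, and ARF6, which acts at the plasma membrane, by -0.04. ARF1, ARF4 and ARF6 had 95% intervals within -0.20 to 0.14. ARF2 showed opposite values on its probe sets, -0.21 (limma adjusted p = 0.327) on the brightest and a rise of 0.46 (limma adjusted p = 0.0105) on a dimmer one. Its dimmer probe set read 1.46 to 1.85 in SSEA1+ and 1.08 to 1.45 in SSEA1-.

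Regulators of ARFs likewise gave no call by their brightest probe sets. ARFGAP2, a GTPase-activating protein of COPI vesicles, differed by -0.28 and was lower in 5 of 5 pairs (limma adjusted p = 0.0869). It was the 1 of the 3 regulators with an unadjusted p under 0.05, where 23.8% of all genes had one. Its other probe sets read the opposite way, at 0.15 and 0.12, higher in 5 of 5 and 4 of 5 pairs. ARFGAP3 differed by 0.04, while a second probe set fell by 0.33 (limma adjusted p = 0.0493). ARFGEF2, an exchange factor of the trans-Golgi network, differed by 0.15, and its second probe set rose by 0.48 (limma adjusted p = 0.0459).

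**Figure D3:**
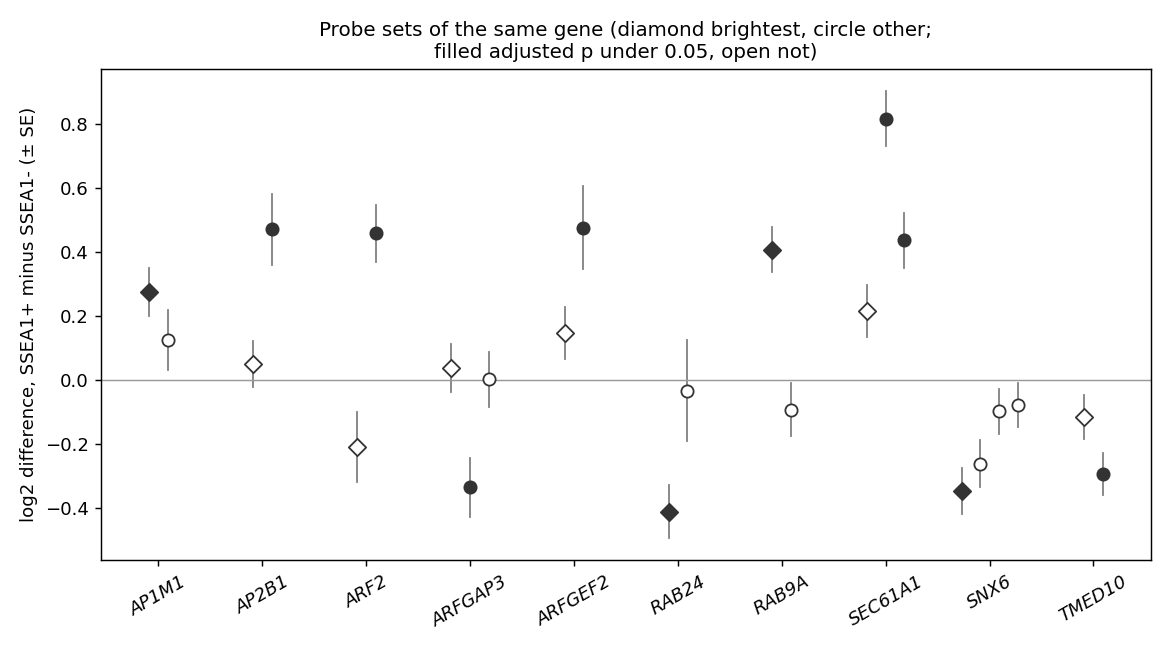
Difference in log2 signal ± SE for every probe set of the 10 genes that had several probe sets and at least 1 called, with diamonds for the brightest and filled symbols for an adjusted p under 0.05. The 3 SEC61A1 probe sets lie above 0 and the 4 SNX6 probe sets below it, whereas the ARF2 probe sets lie on opposite sides.

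Agreement between probe sets was limited. Of the 114 genes, 51 had several probe sets, and these added 72, of which 7 changed. They were 2 of SEC61A1 and 1 each of AP2B1, ARF2, ARFGEF2, ARFGAP3 and TMED10, or 9.72% of the 72 against 6.93% of all such additional probe sets on the array. Of the 7, 5 rose, where the array had 2.81%, and 2 fell, where it had 4.12%. Among the 45 with a mean above 1 in both fractions, 26 had the sign of the gene's brightest probe set. None of the 7 belonged to a gene called by its brightest probe set. The mean over probe sets kept 5 of the 8 calls, lost those of RAB9A, RAB24 and AP1M1, and added 4 genes, COPB1, SEC13, SEC61A1 and TMED10. That fit was adjusted over genes rather than probe sets, so a call could also change without any averaging. SEC13, with a single probe set, kept its difference of -0.22 while its limma adjusted p moved from 0.0720 to 0.0422.

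Genes of the set with like symbols were also set against each other, as the change in their signal ratio on each array, in a comparison added after the data were seen. The 16 pairs had symbols alike but for the last character and both genes above background on all arrays. Genes told apart only by a family number, such as the ARFs, were not paired, except SNX5 and SNX6. Most pairs are close relatives, but SEC61B and SEC61G are unrelated subunits of 1 channel. No ratio passed after Benjamini-Hochberg adjustment. The exact permutation test cannot give a p below 0.00794 here. Over 16 pairs, a ratio at that minimum can pass only if several others lie there too, so the lack of a pass says little. The ratio of SNX5 to SNX6 was 0.36 higher in SSEA1+ (exact permutation p = 0.00794, adjusted 0.0635), and it was higher in 5 of 5 pairs. That ratio took only the brightest probe set of each gene, and the second SNX5 probe set read -0.14. The ratios of COPG2 to COPG1, RAB11B to RAB11A and VPS13D to VPS13C were higher in 5 of 5 pairs too, each with an exact permutation p of 0.0159 and the same adjusted value. At the other end, the ratios of SEC23A to SEC23B and of SEC61B to SEC61G differed by 0.02 and 0.02.

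The wider pathway was read from 7 further lists, of which 116 of 215 genes were measured: 3 rose and 6 fell, 7.76% against 7.39% of all genes, with a median difference of -0.0042. With the block 9 rose and 8 fell, 14.7% against 14.3%. Both shares were near those of the array as a whole. Of 21 ER-Golgi cargo receptors and their partners, 2 rose and 2 fell, where 3.21% of all genes rose and 4.18% fell. KDELR1, the receptor that returns KDEL proteins to the endoplasmic reticulum, rose by 0.48 ± 0.06 (SE, limma adjusted p = 0.00113), and ERGIC1 rose by 0.83. MCFD2, the partner of LMAN1 in glycoprotein export, fell by 0.38 and BCAP31, a membrane protein of the endoplasmic reticulum, by 0.33. Of 23 tethers, GCC2, EEA1 and GOLGA5 fell, GOLGA5 by 0.52, and GOLGA2, a cis-Golgi golgin, rose by 0.35. GOSR2, a Golgi SNARE, fell by 0.34, the single call among 25 SNAREs and partners.

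None of the 11 clathrin and adaptor genes outside the set, 11 RAB cycle genes, 12 ESCRT subunits without a VPS name or 13 ARF-like GTPases and ARF regulators changed in limma. In that order, 1, 3, 1 and 6 had an unadjusted p under 0.05, and 1, 1, 0 and 1 rose with the block, where 23.8% of all genes had such a p and 5.65% rose with the block. Their median differences were 0.05, 0.01, -0.00017 and 0.05.

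**Figure D4:**
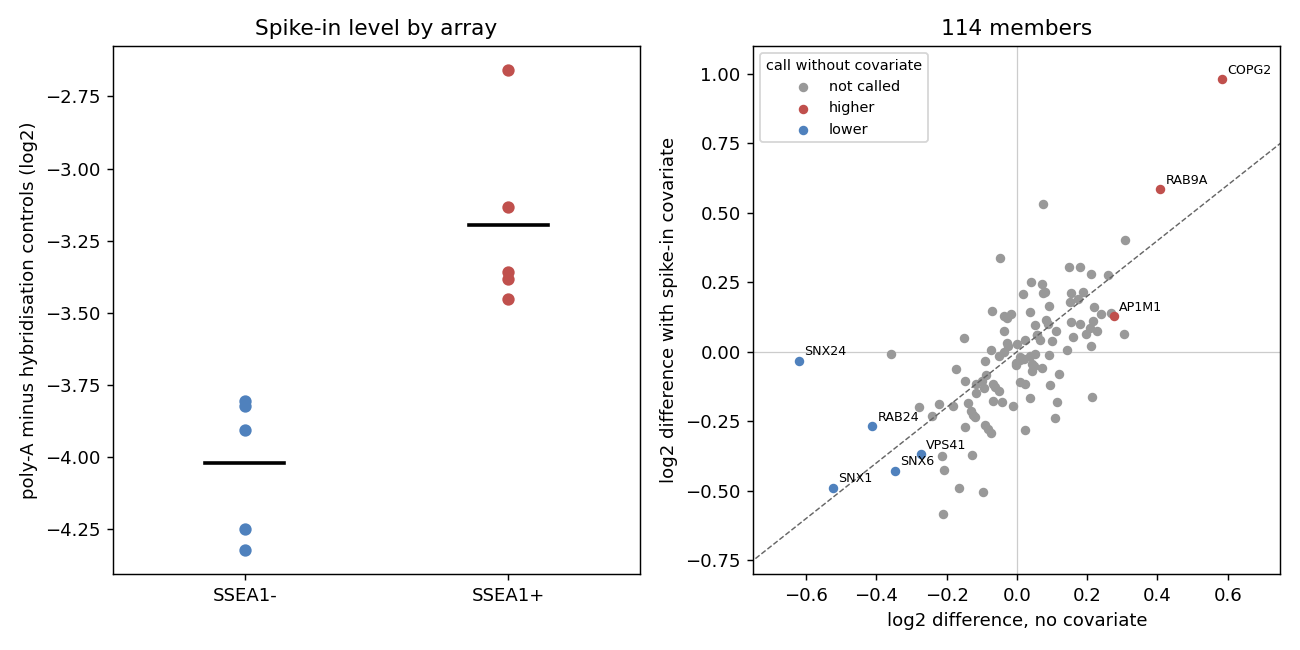
Left, level of the poly-A spike-ins relative to the hybridisation controls on each array (log2), with bars at the means; right, difference of each of the 114 genes without and with that level as a covariate, with a dashed line of equality. The SSEA1+ arrays lie between -3.45 and -2.66 and the SSEA1- arrays between -4.32 and -3.80, and SNX24 moves from -0.62 to -0.03.

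The spike-in level did not overlap between the fractions, so differences fitted with it extrapolate beyond either fraction. Of the 8 calls, 5 kept an unadjusted p under 0.05 with it, namely COPG2, RAB9A, SNX1, SNX6 and VPS41. SNX1 read -0.49 ± 0.17, SNX6 -0.43 ± 0.14, VPS41 -0.37 ± 0.14 and RAB9A 0.58 ± 0.12 (SE). With the block beside it, SNX1 read -0.50 ± 0.28, RAB9A 0.61 ± 0.21 and COPG2 1.11 ± 0.25 (SE), and none of the 114 passed in limma (lowest adjusted p = 0.210), with 11 at an unadjusted p under 0.05. COPG2, RAB9A and SNX1 were the 3 genes whose calls held without any single array and without any pair, though that of RAB9A ended with the mean over its probe sets.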

How the data were processed

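Each of 5 SSEA1+ and 5 SSEA1- samples was hybridised to 1 Affymetrix porcine array. The authors deposited log2 signal values for each probe set, and the submitters' processing notes name RMA, without a version or a background setting. These values were used without further scaling. Names came from the platform annotation, in which 10099 had 1 symbol and 198 several; 113 of the 114 symbols matched a RefSeq table by Entrez identifier. The background level was set at percentile 95 of 23 controls for absent sequences.

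Fractions were compared in limma 3.58.1 (R 4.3.3) by lmFit and eBayes, fitted to the 24123 probe sets with the 188 controls among them, a procedure also tested on simulated data. Permutation tests (scipy 1.17.1) ran over all 252 assignments. Genes named were those called, and in each of 15 roles the 2 with the smallest p and the brightest, plus called genes of the pathway lists; RAB3IL1 was moved by hand to the RAB regulators. Genes named beyond this were chosen after their values were seen. Members, lists and tests were chosen with earlier results of these data known.

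The main fit and the permutation tests were unpaired. Replicate numbers were treated as pairs in the block fits, the counts over pairs and the leave-outs of pairs. The submitters' account of 5 biological replicates resulting in 5 fractions of each kind can be read as a shared source. Same-numbered arrays deviated together from the means of their fractions, with correlations of 0.249, 0.653, 0.416, 0.116 and 0.288, all over 0.1. However, SSEA1+ replicate 4 correlated at 0.379 with SSEA1- replicate 5, and SSEA1+ replicate 3 at 0.348 with SSEA1- replicate 4. Both arrays numbered 4 thus correlated more with another replicate than with each other. Whether replicates came from separate animals is not stated, so p-values measure the spread between these samples. The number of arrays limits the precision. Alternatives were the block, fixed or random, other variance models and scalings, a filter on dim probe sets, fits without controls, the mean over probe sets, the spike-in level as a covariate, and leaving out arrays or pairs.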

Additional observations from a re-analysis of the deposited data

Results flagged for a closer look

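For 84 groups of 5 arrays, 42 named genes of the set in 2 fractions, Dixon's test at the 95% level set a single array apart from the other 4 in 4 groups, where chance alone flags about 1 in 20. AP1M1 read 1.34 on SSEA1- replicate 1, with the next highest at 1.16, and this array is the one whose removal kept its call. SEC62 read 6.10 on SSEA1+ replicate 1, below the next lowest at 6.30. SEC14L1 read 5.67 on SSEA1+ replicate 1 against 5.63 for the next highest, in a fraction with a very narrow range. TMED2 read 8.69 on SSEA1+ replicate 3, against 8.56 for the next highest.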

How the results depend on the processing

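The counts of 8 called genes, 3 higher and 5 lower, were 7 or 8 in all with another variance model, scaling or filter or without controls. With the mean over probe sets there were 9, of which 5 were among the 8 and 4 were not; RAB9A, RAB24 and AP1M1 lost their calls. With the replicate block there were 12, with 5 higher and 7 lower, or 10.5% of the set against 14.3% of all genes. A random replicate block gave 18, with 9 higher and 9 lower. The share of all genes called with the random block is not given here, so the 18 cannot be set against the array. At 1.5-fold or more there was 1, with 0 higher and 1 lower. With the spike-in covariate, alone or with the replicate block, there were 0 in all, 0 higher and 0 lower, in limma. Leaving out arrays or pairs gave 3 to 8 in all, 2 to 5 higher and 1 to 5 lower; the lowest, 3, came without the replicate 1 pair or the replicate 5 pair, 4 without the replicate 3 pair, and 5 without SSEA1+ replicate 1, 3 or 5 or SSEA1- replicate 3. The spike-in difference, without each array in turn, was 0.69 to 0.89.

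Of 200 refits of the 8 called genes, 134 kept the call and direction, 65 lost the call and 1 turned, SNX24 at 0.17 with the block and covariate. Uncalled genes also turned, many of them near 0. Others were not near 0 in the main fit, among them ARFGAP2 at -0.28, VPS26B at 0.21, ARF2 at -0.21 and TMED5 at 0.17. With the covariate AP3D1 read 0.0746, RAB3GAP1 0.129, VPS13C 0.338, VPS26B -0.16 and VPS72 -0.0429, and with the block beside it AP3D1 0.15, ARF5 -0.34, ARFGAP2 0.0501, RAB3GAP1 0.24, VPS13C 0.74, VPS26B -0.16 and VPS28 -0.0525. With the mean over probe sets AP3D1 read 0.0865, ARF2 0.12, ARFGAP3 -0.0977, SEC61G 0.0131, TMED5 -0.0037 and VPS13C 0.0678, and with cyclic loess ARF4 0.0088 and SEC61G 0.0019. Over the leave-outs ARF4 ran from -0.0264 to 0.0197, SEC61G from -0.0907 to 0.0488, RAB3GAP1 from -0.0925 to 0.0322, VPS13C from -0.127 to 0.0676, VPS72 from -0.0159 to 0.110, AP3D1 from -0.0925 to 0.0154 and ARFGAP3 from -0.0076 to 0.0967. The causes were not tested. Low signals, though above background on all 10 arrays, limit what AP1M1, SNX24 and the dimmer SEC61A1 and ARF2 probe sets can show.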
